A study of Mus musculus with 8 samples.

Results

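The proteasome and immunoproteasome genes of mouse microglia were followed across experimental autoimmune encephalomyelitis (EAE), an immune attack on central nervous system myelin that is used as a model of multiple sclerosis. Genes were taken by name from the array's annotation: Psma, Psmb, Psmc, Psmd, Psme, Psmf or Psmg followed by a number, with pseudogenes left out. Of 30702 genes with a single symbol, 46 met this rule, each through 1 probe set, and 42 of them were bright enough to be tested. Each of the 8 arrays was 1 labelled sample of microglial RNA from C57Black/6J mice, so there was 1 array per group. The groups were p50 EAE, iguratimod-treated EAE, EAE and naive, each once in mice labelled icKO, with deletion of connexin 47 (Cx47), and once in the control. The series title places that deletion in oligodendroglia, so the microglia themselves are not its stated target. The control was labelled FL on 3 arrays and F/F on the p50 array. It is called control throughout, on the assumption that both labels name the same genotype. Iguratimod is a small-molecule antirheumatic drug. What p50 stands for, the driver of the deletion, the age and sex of the mice, the drug's dose and whether animals were pooled are not given in the sources used here.

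The proteasome is the main protease for proteins tagged with ubiquitin. Its 20S core has outer rings of alpha subunits (Psma genes) and inner rings of beta subunits (Psmb genes), and its 19S cap of ATPases (Psmc) and other subunits (Psmd) binds and unfolds the substrate. The beta subunits that cut are encoded by Psmb6, Psmb5 and Psmb7. Under interferon gamma, newly built cores take up Psmb9, Psmb8 and Psmb10 in their place, giving the immunoproteasome, and the PA28 activator made of the Psme1 and Psme2 products can replace the cap. This form is known for making peptides that suit presentation on MHC class I, and microglia are among the brain cells that induce it in inflammation. Psmg genes encode chaperones that build the core, and Psmd5, Psmd9 and Psmd10 encode chaperones that build the cap.

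The deposited intensities had array medians between 243 and 269: 269 on the control naive and 267 on the control iguratimod array, and 243 to 252 on the others. All levels are log2(intensity + 16), and a difference of 1 is a doubling on that scale. With 1 array per group, differences were tested in limma with state and genotype as additive terms over all 8 arrays, so the error (SE) and adjusted p reflect how far genotype and state depart from additivity, not the spread between repeat animals. The microglia markers were bright on every array: summed over 7 genes they ran between 357328 and 504151 intensity units. Neutrophil markers (8 genes) summed to 102321 on the icKO EAE array and 899048 on the control EAE array, against 6080 on the icKO naive and 25592 on the control naive array. With iguratimod they summed to 131903 (icKO) and 40277 (control), and at p50 to 12661 (icKO) and 5875 (control). Monocyte markers (5 genes) summed to 21242 and 24763 on the icKO and control EAE arrays, against 1794 and 2417 on the icKO and control naive arrays. The 5 T cell markers summed to 1717 on the icKO EAE array and to 1121 to 1322 on the other arrays. In bulk RNA, fewer cells of a type and less RNA per cell cannot be told apart. The connexin 47 gene itself was not analysed here.

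Motifs were searched in RefSeq promoter windows (GRCm38.p6, 250 bases before to 50 after each start). Stretches of 5 of them are printed with the match in capitals: Psmb8, Psmb9 and its partner Psmb6, and short stretches around the matches in Psme1 and Psmg4. A window was found for 38 of the 46 genes. The interferon-stimulated response element (ISRE, searched on both strands as GAAA, any 2 bases, GAAA) was in 3.44% of all 32851 windows and in those of 5 proteasome genes: Psme1, Psmg4, Psmb3, Psmd4 and Psmd9. The letters TTCNNNGAA (gamma-activated site, both strands) were in 8.30% of all windows and in those of Psmb8, Psmd2 and Psmg1. The letters TGACNNNGC (antioxidant response element, both strands, the core bound by Nfe2l1 and Nfe2l2) were in 12.4% of all windows and in those of 5 proteasome genes, Psmb6 among them. The letters CCAAT (both strands) were in 37.4% of all windows and in those of 14 of the 38 genes. Psmb8 and Psmb9 lie close together in the MHC region of chromosome 17, and Psmb9 and the peptide transporter gene Tap1 run in opposite directions from starts 225 bases apart. The stretch upstream of Psmb8 (chr17:34198045-34198194, plus strand) holds TTCNNNGAA at positions -97 to -89. The stretch that Psmb9 shares with Tap1 (chr17:34187331-34187555, minus strand, read toward Psmb9) holds CCAAT on its other strand at positions -8 to -4. The stretch before Psmb6, the constitutive partner of Psmb9 (chr11:70525257-70525356, plus strand), holds TGACNNNGC at -9 to -1. The ISRE letters sit after the start, on the minus strand in Psme1 (positions 10 to 19, chr14:55578493-55578522) and on the plus strand in Psmg4 (16 to 25, chr13:34162969-34162998), both shown on the plus strand. These matches describe letters in the windows and were not tested as sites. Psmb3, Psmd4 and Psmd9 also hold the ISRE letters and are not printed. In EAE against naive they changed by 0.20, -0.09 and 0.10 in icKO mice and by 0.61, 0.08 and 0.14 in control mice.
Psmb8 promoter: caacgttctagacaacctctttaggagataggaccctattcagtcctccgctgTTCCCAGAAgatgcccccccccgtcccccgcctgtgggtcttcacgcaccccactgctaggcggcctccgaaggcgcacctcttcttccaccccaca
Psmb9 and Tap1 shared promoter: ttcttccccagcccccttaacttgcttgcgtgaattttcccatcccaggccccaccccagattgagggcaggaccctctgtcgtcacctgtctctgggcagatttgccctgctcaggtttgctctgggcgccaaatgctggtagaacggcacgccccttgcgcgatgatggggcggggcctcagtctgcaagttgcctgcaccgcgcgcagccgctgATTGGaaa
Psmb6 promoter: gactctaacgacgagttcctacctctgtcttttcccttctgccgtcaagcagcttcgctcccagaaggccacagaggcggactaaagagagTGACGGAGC
Psme1 site: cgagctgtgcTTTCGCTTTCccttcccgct
Psmg4 site: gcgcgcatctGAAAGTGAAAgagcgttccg

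The first comparison asked how the genes differ in EAE. The 3 inducible catalytic genes rose, by about a doubling each, and Psma5 rose with them. These 4 were the proteasome genes that passed adjusted p 0.05, 4 of 42 higher and 0 lower, where 3.38% of all 18234 tested genes passed as higher and 0.389% as lower (617 and 71 genes, against 161 and 46 after further quantile normalization). Psmb8, which encodes the inducible chymotrypsin-like subunit, read 9.99 and 9.74 on the icKO and control EAE arrays, against 8.93 and 8.52 on the icKO and control naive arrays. In intensity units those were 1000 and 837 in EAE, against 473 and 352 in naive mice. Both EAE arrays lay above both naive arrays, and the fitted difference was 1.13 ± 0.21 (SE), a 2.20-fold rise (limma adjusted p = 0.047). Psmb9, the inducible partner in place of Psmb6, read 10.11 and 9.96 on the icKO and control EAE arrays, against 9.13 on both naive arrays. Its difference was 0.91 ± 0.13 (SE), 1.88-fold (adjusted p = 0.0286), with the naive arrays alike and the EAE arrays close together. Psmb10, which takes the place of Psmb7, read 10.57 and 10.38 on the icKO and control EAE arrays, against 9.52 and 9.25 on the icKO and control naive arrays. It rose by 1.09 ± 0.19 (SE), 2.13-fold (adjusted p = 0.0447), again with no overlap between the states. Over all tested genes, 29.5% were higher on both EAE arrays than on both naive arrays.

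Psme1, the alpha subunit of PA28, read 10.01 and 9.99 on the icKO and control EAE arrays, against 9.44 and 9.40 on the naive arrays. The states did not overlap, but the difference of 0.58 ± 0.16 (SE) did not pass (adjusted p = 0.124). Psme2 has no probe set of its own here: 1 probe set is annotated to Psme2 and Psme2b, and read 10.73 and 10.76 in icKO and control EAE, against 10.35 and 10.05 in icKO and control naive mice. Fitted with such probe sets included, a choice made after seeing the data, it differed by 0.55 ± 0.16 (SE, adjusted p = 0.146), close to Psme1. A second probe set, annotated to Psme2b and Psme2, read between 15.15 and 15.66 on all arrays and differed by 0.08 ± 0.14 (SE, adjusted p = 0.790). These probe sets of near-identical genes disagree, and neither can be given to Psme2 alone.

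**Figure D1:**
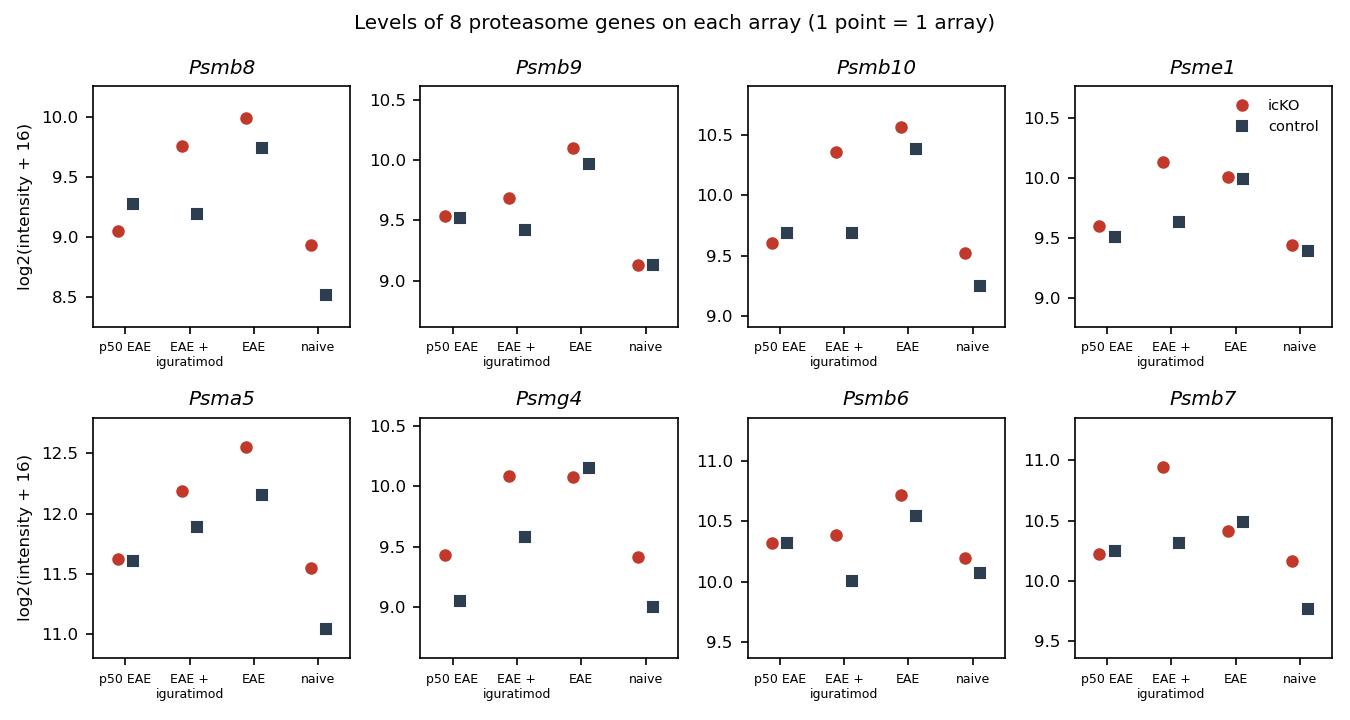
Levels of 8 proteasome genes on each array, as log2(intensity + 16) on the y axis, each panel spanning 2 log2 units, with the 4 states on the x axis (circles icKO, squares control, 1 point per array). All 8 genes are higher on both EAE arrays than on both naive arrays, as were 29.5% of all tested genes.

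Among constitutive subunits the differences were larger in the core than in the cap, a contrast that was not tested. All 13 constitutive 20S genes were higher on average in EAE, with a median of 0.50 and a range of 0.19 to 1.06, and 1 passed. That one was Psma5, an alpha ring subunit, which read 12.55 and 12.15 on the icKO and control EAE arrays, against 11.55 and 11.04 on the icKO and control naive arrays. Its rise was 1.06 ± 0.16 (SE), 2.08-fold (limma adjusted p = 0.0304), as large as that of the inducible genes. The next was Psmb1, a non-catalytic beta subunit, at 12.89 and 12.44 on the icKO and control EAE arrays, against 12.05 and 11.53 on the naive arrays. The states did not overlap, and the difference of 0.88 ± 0.26 (SE) did not pass (adjusted p = 0.144). The constitutive catalytic gene Psmb6 read 10.72 and 10.55 on the icKO and control EAE arrays, against 10.20 and 10.07 on the naive arrays (difference 0.50 ± 0.14 SE, adjusted p = 0.127). Psmb7, the constitutive trypsin-like subunit, read 10.41 and 10.49 on the EAE arrays, against 10.16 and 9.77 on the naive arrays (0.49 ± 0.21 SE, adjusted p = 0.275). Both EAE arrays also lay above both naive arrays for Psmb6 and Psmb7. For the constitutive chymotrypsin-like subunit there is only a probe set annotated to Psmb5 and Mir686, which read 11.75 and 11.82 in icKO and control EAE, against 11.07 and 11.00 in naive mice (0.75 ± 0.29 SE, adjusted p = 0.236).

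The 17 constitutive 19S genes had a median difference of 0.22 (range -0.01 to 0.66), and none passed. The lowest adjusted p among them was that of Psmd8, a lid subunit, at 0.54 ± 0.13 (SE, adjusted p = 0.0968), and the highest difference was that of the ATPase Psmc6, at 0.66 ± 0.19 (SE, adjusted p = 0.136). Sem1, a 19S subunit outside the naming rule, was not counted among these 17 and did pass, at 1.11 (limma adjusted p = 0.0248). Psmd4, a ubiquitin receptor of the cap, stayed between 9.26 and 9.45 on all 8 arrays, and Psmd6, a lid subunit, between 10.39 and 10.75. Among core chaperones, Psmg4 read 10.08 and 10.15 on the icKO and control EAE arrays, against 9.41 and 8.99 on the naive arrays. Its difference of 0.91 ± 0.17 (SE) lay just outside the threshold (adjusted p = 0.0506). Psmg1 and Psmg2, which encode partners in another core chaperone, had mean differences of 0.11 and 0.06. The cap chaperone Psmd10 differed by 0.44 ± 0.13 (SE, adjusted p = 0.150). The other activators, Psme3 (PA28 gamma) and Psme4 (PA200), differed by 0.15 and 0.05. Psma8, known from testis, and Psmb11, known from the thymic cortex, were dim, at 7.62 to 7.89 and 6.83 to 7.32 over the 8 arrays, and the inhibitor gene Psmf1 (7.57 to 7.73) and the chaperone gene Psmg3 (7.23 to 7.68) were also below the filter on every array.

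**Figure D2:**
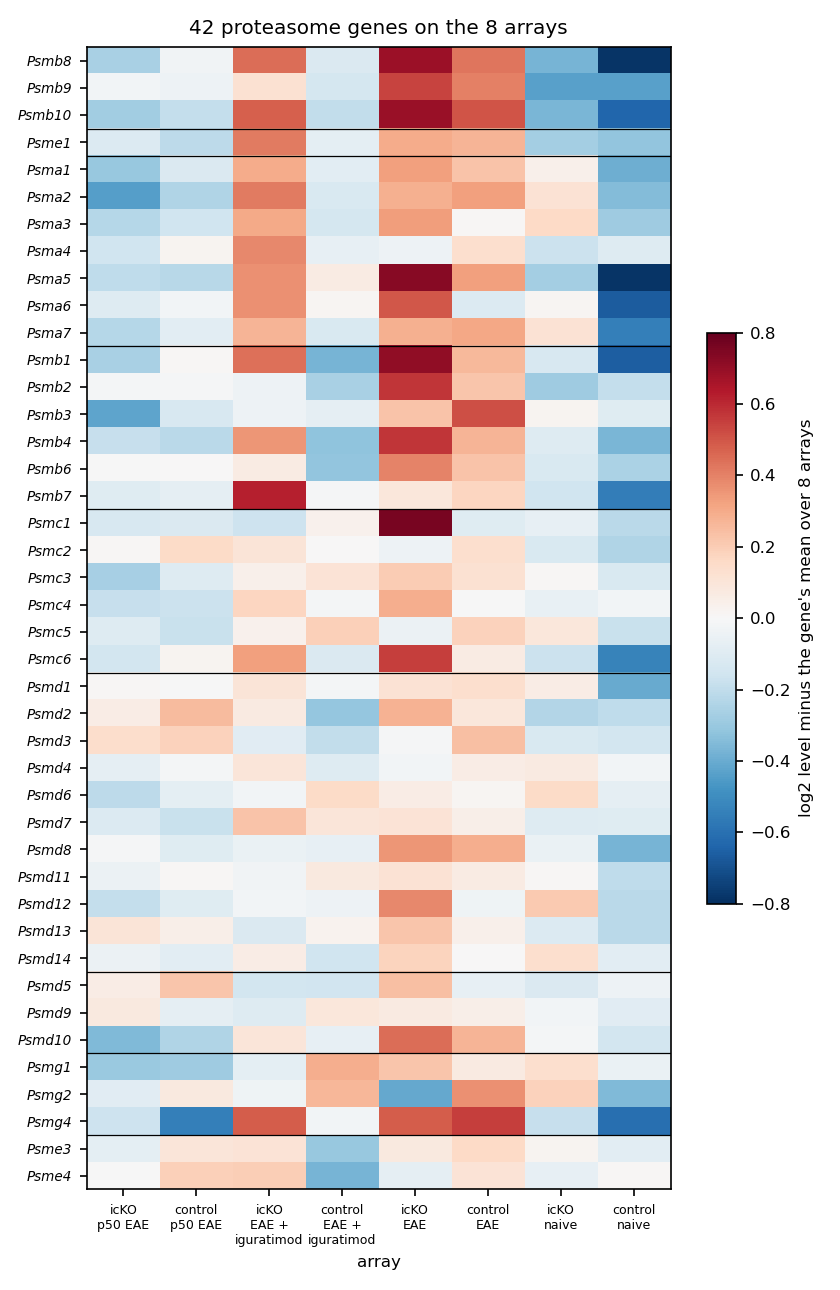
Levels of the 42 tested genes (rows, grouped by role from the inducible genes at the top to the other activators at the bottom) on the 8 arrays (columns), coloured by log2 level minus that gene's mean over the 8 arrays, with the scale ending at 0.8 either way. The icKO EAE array holds the highest level of 23 genes and the control naive array the lowest of 22.

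Across all 42 genes, 40 were higher on average in EAE, with a median of 0.35 against 0.01 over all tested genes. The reference moves with brightness. Over the 11441 genes left by a filter at the 70th percentile, the median was 0.06 and 778 passed as higher. Both EAE arrays lay above both naive arrays for 30 of the 42, where 29.5% of all genes did so, and below them for 0 of 42, where 22.5% did. By unadjusted p under 0.05, 16 of 42 were higher and 0 lower, where 13.0% of all genes were higher and 6.15% lower. Without the control EAE array, which carried the highest neutrophil marker sum, the differences were 1.14 for Psmb8, 0.93 for Psmb9, 1.05 for Psmb10 and 1.12 for Psma5. The adjusted p then ran from 0.141 to 0.191, with 0 genes of all passing (0 at adjusted p 0.05, 2730 at unadjusted p 0.05). The icKO EAE array that remains also carries more neutrophil and monocyte marker signal than the naive arrays, as given above, and the part of either in these differences was not tested. The count of 4 fell to 0 without the 2 p50 arrays or after further quantile normalization, and ranged from 0 to 2 when 1 array was left out.

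**Figure D3:**
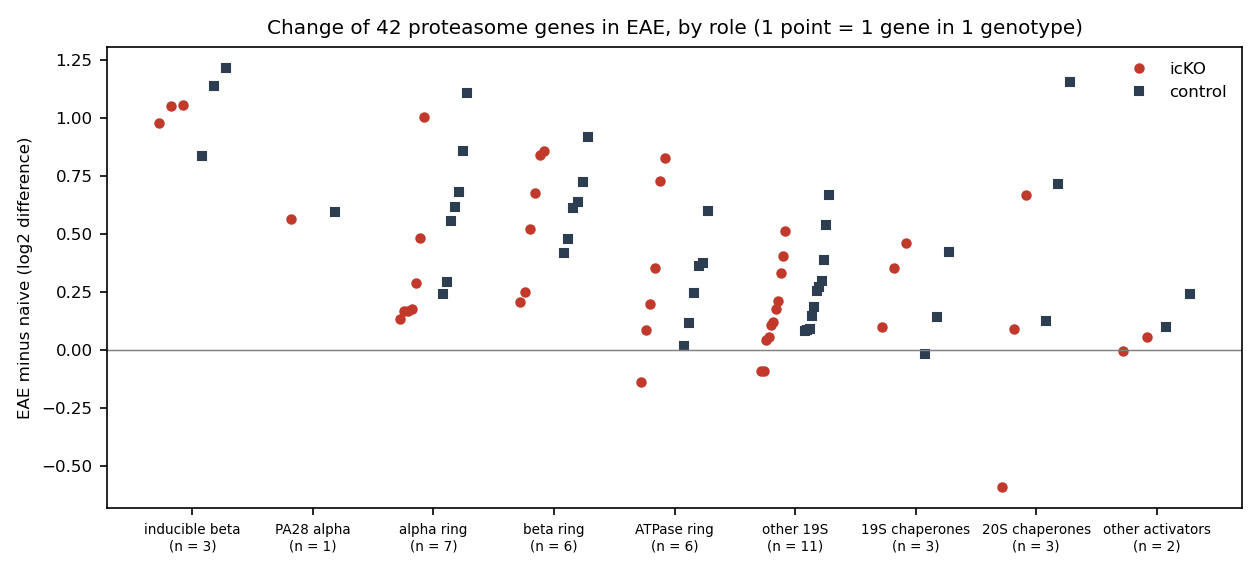
Log2 difference between EAE and naive mice (y axis) for each of 42 genes, by role (x axis), with icKO as circles on the left and control as squares on the right of each role. The 3 inducible beta genes lie between 0.84 and 1.22 in both genotypes, and most 19S genes lie below 0.50.

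Set side by side, the inducible genes had larger differences than the subunits they replace. The mean EAE difference over Psmb8, Psmb9, Psmb10 and Psme1 was 0.93, against 0.53 over the 13 constitutive 20S genes and 0.25 over the 17 constitutive 19S genes. In icKO mice the 3 means were 0.91, 0.44 and 0.22, and in control mice 0.95, 0.63 and 0.28. The immunoproteasome mean minus the mean of all 30 constitutive genes was 0.59 in icKO and 0.52 in control mice, so the order held in both genotypes. In icKO mice 10 of 42 genes were at least 1.5-fold higher in EAE (11.8% of all genes) and 1 was lower (4.77%). In control mice 16 of 42 were higher (10.5%) and 0 lower (10.1%). For each exchange of subunits, the inducible gene's change in untreated EAE exceeded its partner's: Psmb9 minus Psmb6 by 0.41, Psmb10 minus Psmb7 by 0.61, and Psmb8 minus the probe set annotated to Psmb5 and Mir686 by 0.39. This did not hold throughout the other states. Against naive mice the values, in that order, were 0.36, -0.02 and 0.12 under iguratimod, and 0.22, -0.01 and 0.01 at p50. Still, in EAE 5 of the 30 constitutive genes had a larger difference than Psme1, the lowest of the immunoproteasome genes counted, and 0 had a larger one than Psmb8. Psme2 is not in this group, and its shared probe sets differed by 0.55 and 0.08, less than Psme1. These group means carry no test.

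Some of the genes around the proteasome rose as well. The list counts given here stand beside the 3.38% of all tested genes that passed as higher and 0.389% as lower. Of 16 tested genes of the wider pathway, 1 passed as higher in EAE and 0 as lower: Sem1, the smallest 19S subunit, at 1.11 ± 0.15 (SE, limma adjusted p = 0.0248). Pomp, the maturation factor that the assembling core needs, had a larger difference of 1.59 ± 0.32 (SE) that did not pass (adjusted p = 0.0606). Uchl5, a deubiquitinase of the cap, differed by 0.93 ± 0.22 (SE, adjusted p = 0.0834), and the regulators of proteasome genes Nfe2l1 and Nfe2l2 by 0.10 and 0.45, without passing. The pathway list's median was 0.35, against 0.01 over all tested genes. Of 11 peptide-loading genes, 4 passed as higher: Tap1 at 1.66 ± 0.22 (SE), and B2m, H2-K1 and H2-D1, which encode the MHC class I light chain and heavy chains, at 1.16, 2.82 and 2.67. Tap1 shares an upstream stretch with Psmb9, shown above, and the part of this in their differences was not tested. Tap2, the partner of Tap1 in the transporter, was dimmer, at 8.15 to 8.52 on all arrays. It differed by 0.07 ± 0.15 (SE, adjusted p = 0.831). Of 14 interferon signalling genes, 4 passed as higher: Stat2 at 1.99, Ifnar1 at 0.92, Ifngr2 at 0.90 and Irf7 at 0.89. Irf1, a known inducer of Psmb9, was dim, at 7.99 to 8.31 on all arrays, and differed by 0.17 ± 0.13 (SE, adjusted p = 0.545). Ifng, the interferon gamma gene, was below the filter on every array, at 7.06 to 7.35, and was not tested. The list medians were 0.65 and 0.58 for peptide loading and interferon signalling.

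**Figure D4:**
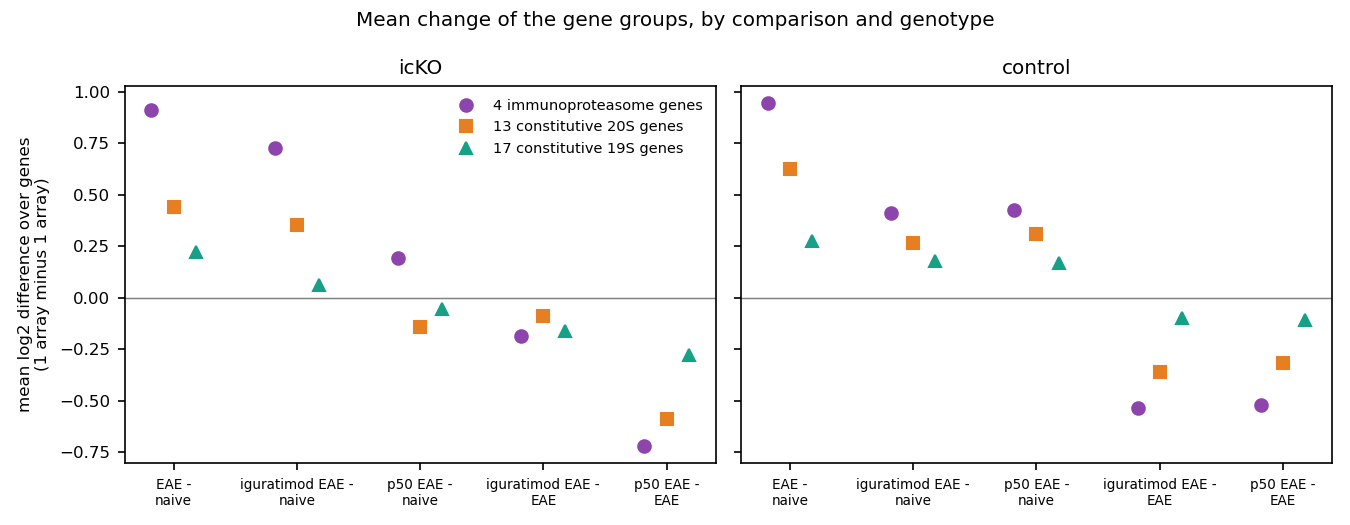
Mean log2 difference (y axis, 1 array minus 1 array) over the 4 immunoproteasome genes (circles), 13 constitutive 20S genes (squares) and 17 constitutive 19S genes (triangles) for 5 comparisons (x axis), icKO on the left and control on the right. The immunoproteasome mean in EAE is 0.91 in icKO and 0.95 in control mice, and under iguratimod against EAE it is -0.19 in icKO and -0.54 in control mice.

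The next comparison set iguratimod-treated EAE against EAE. None of the 42 genes passed (limma, 0 of all 18234 genes, 0.0% in either direction, lowest proteasome adjusted p = 0.519). By unadjusted p under 0.05, 6 of 42 were lower and 0 higher, where 5.58% of all genes were lower and 2.93% higher. On average 35 of 42 were lower, with a median of -0.17, against -0.01 over all genes, and both treated arrays lay below both EAE arrays for 14 of 42 (18.9% of all genes). Psmb9 read 9.69 and 9.42 on the icKO and control treated arrays, against 10.11 and 9.96 on the EAE arrays, a difference of -0.48 ± 0.13 (SE, adjusted p = 0.519). Psmb10 read 10.36 and 9.69 on the treated arrays, against 10.57 and 10.38 on the EAE arrays (-0.45 ± 0.19 SE, adjusted p = 0.610). Psmb8 read 9.75 and 9.19 on the treated arrays, against 9.99 and 9.74 on the EAE arrays (-0.39 ± 0.21 SE, adjusted p = 0.668). In each of these genes the control array under iguratimod was the lower of the treated pair. Psme1 read 10.13 and 9.64 on the icKO and control treated arrays, against 10.01 and 9.99 in EAE, so it was higher in icKO and lower in control mice. Its mean difference was -0.12 ± 0.16 (SE), and 0.11 without the control treated array.

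Apart from the inducible genes, the lowest mean differences were in the beta ring, none past the threshold: Psmb2 at -0.55 ± 0.15 (SE, adjusted p = 0.520), Psmb1 at -0.45 and both Psmb3 and Psmb6 at -0.43. Psmb7 was higher on average, by 0.18 ± 0.21 (SE), with 10.94 and 10.31 on the icKO and control treated arrays, against 10.41 and 10.49 in EAE. The sign turned without the icKO EAE array or without the icKO treated array (-0.03 and -0.09). Psmd7 and the ATPase gene Psmc5 were higher in both genotypes, by 0.08 and 0.04 on average. By genotype, the 4 immunoproteasome genes differed by a mean of -0.19 in icKO mice and -0.54 in control mice, and the 13 constitutive 20S genes by -0.09 in icKO and -0.36 in control mice. Monocyte markers summed to 10273 and 4343 on the icKO and control treated arrays, against 21242 and 24763 in EAE. Neutrophil markers summed to 131903 and 40277 on the icKO and control treated arrays, against 102321 and 899048 in EAE. The monocyte sum was thus lower under iguratimod in both genotypes, and the neutrophil sum higher in icKO and lower in control mice. The part of either in these differences was not tested. None of the 3 lists had a gene that passed in this comparison.

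Against naive mice, the iguratimod-treated EAE arrays had 0 of 42 genes past the threshold (limma, 0.00548% of all genes higher, 0.0% lower, lowest proteasome adjusted p = 0.209). By unadjusted p under 0.05, 8 of 42 were higher and 0 lower (7.17% of all genes higher and 3.76% lower). The highest means were those of Psmb8 (0.74 ± 0.21 SE), Psma5 (0.74 ± 0.16 SE), Psmb7 (0.66 ± 0.21 SE), Psmb10 (0.64 ± 0.19 SE), Psmg4 (0.63 ± 0.17 SE) and Psma6 (0.51 ± 0.21 SE). Psme1 differed by 0.46 ± 0.16 (SE), Psmb9 by 0.43 ± 0.13 (SE) and Psmb6 by 0.06 ± 0.14 (SE). All 4 immunoproteasome genes were higher on both treated arrays than on both naive arrays, among 13 of 42 genes that were (20.7% of all genes). Their mean difference was 0.73 in icKO mice and 0.41 in control mice. At the low end, Psmd14 (the deubiquitinase of the lid) and Psmd5 each differed by -0.07. This comparison and the one with EAE share the treated arrays, and this one shares the naive arrays with the EAE comparison.

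The p50 EAE arrays stood between EAE and naive for the inducible genes. These arrays differ from the rest in another way: Xist, the transcript of X inactivation, read 16.64 and 15.90 on the icKO and control p50 arrays, against 7.71 to 8.30 on the other 6. The labels do not give the animals' sex, and this difference and the p50 state cannot be told apart. Against EAE, none of 42 genes passed (limma, 1.62% of all genes lower and 1.09% higher). By unadjusted p under 0.05, 15 of 42 were lower and 0 higher (11.0% of all genes lower and 8.53% higher), and both p50 arrays lay below both EAE arrays for 30 of 42, where 31.0% of all genes did, and above them for 0 of 42 (26.4%). On average 37 of 42 were lower, with a median of -0.32, against -0.02 over all genes. Psmb10 read 9.60 and 9.69 on the icKO and control p50 arrays, against 10.57 and 10.38 in EAE (-0.83 ± 0.19 SE, adjusted p = 0.0906). Psmb8 read 9.05 and 9.28 at p50, against 9.99 and 9.74 in EAE (-0.70 ± 0.21 SE, adjusted p = 0.143). Psmb9 read 9.54 and 9.52 at p50, against 10.11 and 9.96 in EAE (-0.51 ± 0.13 SE, adjusted p = 0.104). Psme1 read 9.60 and 9.51 at p50, against 10.01 and 9.99 in EAE (-0.44 ± 0.16 SE, adjusted p = 0.203). All 4 genes were lower on both p50 arrays than on both EAE arrays.

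The lowest adjusted p in this comparison belonged to Psmg4, at 9.43 and 9.05 on the icKO and control p50 arrays, against 10.08 and 10.15 in EAE (-0.88 ± 0.17 SE, limma adjusted p = 0.0635). Psma5 read 11.62 and 11.61 at p50, against 12.55 and 12.15 in EAE (-0.74 ± 0.16 SE, adjusted p = 0.0728), and Psmd10, the only member on the X chromosome, differed by -0.66 ± 0.13 (SE, adjusted p = 0.0669). The beta ring genes Psmb3, Psmb4 and Psmb1 differed by -0.65, -0.62 and -0.61, and the alpha ring gene Psma2 by -0.65. Among genes with 1 sign in both genotypes, those at the other end were Psme4 and Psmc2, at 0.08 and 0.03. The immunoproteasome mean was -0.62, against -0.45 for the constitutive 20S genes and -0.19 for the 19S genes. Of the wider pathway, 1 of 16 genes passed, Sem1, which fell by 1.01 on the log2 scale (adjusted p = 0.0329). Over all tested genes, 1.62% passed as lower and 1.09% as higher. Monocyte markers summed to 2947 and 2309 on the icKO and control p50 arrays, against 21242 and 24763 in EAE, and the neutrophil sums were also lower at p50. Of 7 microglia markers, 6 were higher at p50 than in EAE (median 0.88) and 1 passed, Tmem119 (0.90 ± 0.16 SE, adjusted p = 0.0482). The part of these markers in the proteasome differences was not tested.

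Against naive mice, the p50 arrays had 0 of 42 genes past the threshold (limma, 0.351% of all genes higher and 0.4% lower, 64 and 73 genes, against 282 and 105 with arrays centred on their median), and 1 of 42 at unadjusted p under 0.05 (12.3% of all genes higher and 8.22% lower). That one was Psmb9, 0.40 ± 0.13 (SE) above naive (adjusted p = 0.169). Psmb8 differed by 0.44 ± 0.21 (SE), Psmb10 by 0.26 ± 0.19 (SE) and Psme1 by 0.13 ± 0.16 (SE), and each of the 4 was higher on both p50 arrays than on both naive arrays, as were 14 of 42 genes (31.6% of all genes), while 6 of 42 were lower on both (26.9%). Psmd2, a scaffold of the cap's base, differed by 0.38 ± 0.17 (SE), Psma5 by 0.32 ± 0.16 (SE) and Psmd3 by 0.30. At the low end, among genes with 1 sign in both genotypes, Psmg1, Psmb3 and Psmd10 differed by -0.33, -0.24 and -0.22. The means were 0.31 for the immunoproteasome, 0.08 for the constitutive 20S and 0.06 for the 19S genes. Of 11 peptide-loading genes, H2-D1 passed (2.03, adjusted p = 0.0338), while Tap1 differed by 0.69 (adjusted p = 0.171).

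Loss of connexin 47 was compared with control within the states. No proteasome gene passed over the 4 states (limma, 0 of all 18234 genes, 0.0% in either direction, lowest proteasome adjusted p = 0.882). By unadjusted p under 0.05, 4 of 42 were higher in icKO and 0 lower (1.92% of all genes higher and 3.5% lower). On average 34 of 42 were higher in icKO, with a median of 0.11, against -0.02 over all genes, and 6 of 42 were higher in all 4 states, where 4.9% of all genes were. Those in the constitutive core were Psmb4, at 0.32 ± 0.12 (SE), and Psma5, at 0.31 ± 0.11 (SE), and among the rest were Psmd14 (0.16 ± 0.09 SE), Psmd8 (0.12), Psmb9 (0.11 ± 0.09 SE) and Psme1 (0.17 ± 0.11 SE). Psmb8 and Psmb10 were higher in icKO in 3 of 4 states, by 0.25 ± 0.15 (SE) and 0.26 ± 0.14 (SE) on average, and lower at p50. No gene was lower in icKO in all 4 states (7.92% of all genes).

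State by state, the genotypes stood furthest apart under iguratimod for the inducible and the constitutive core genes. The immunoproteasome mean in icKO minus control was -0.05 at p50, 0.50 under iguratimod, 0.15 in EAE and 0.18 in naive mice. The 13 constitutive 20S genes gave -0.11 at p50, 0.43 under iguratimod, 0.16 in EAE and 0.34 in naive mice, and the 17 constitutive 19S genes -0.04, 0.06, 0.13 and 0.18 in the same order of states. Under iguratimod 4 of 42 genes were at least 1.5-fold higher in icKO (5.44% of all genes) and 0 lower (8.47%): the higher were Psmb1 (0.81), Psmb4 (0.68), Psmb10 (0.67) and Psmb7 (0.63). In naive mice 2 were, Psma6 (0.68) and Psma7 (0.66), where 2.3% of all genes were and 0 were lower (8.2%). In EAE 2 were higher, Psmc1 (0.86) and Psma6 (0.61), where 4.98% of all genes were, and Psmg2 was lower (-0.77), where 3.35% were. At p50 none differed by 1.5-fold (1.88% of all genes higher, 1.45% lower). Over all 8 arrays, the control naive array held the lowest level of 22 of 42 genes (16.6% of all genes), among them all 4 immunoproteasome genes. The icKO EAE array held the highest level of 23 (15.4% of all genes), among them Psmb8, Psmb9 and Psmb10. Each of these is a single array against a single array, with no test. The control naive and control iguratimod arrays also had the highest array medians, 269 and 267 intensity units. The part of that array difference in the genotype differences was not tested.

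**Figure D5:**
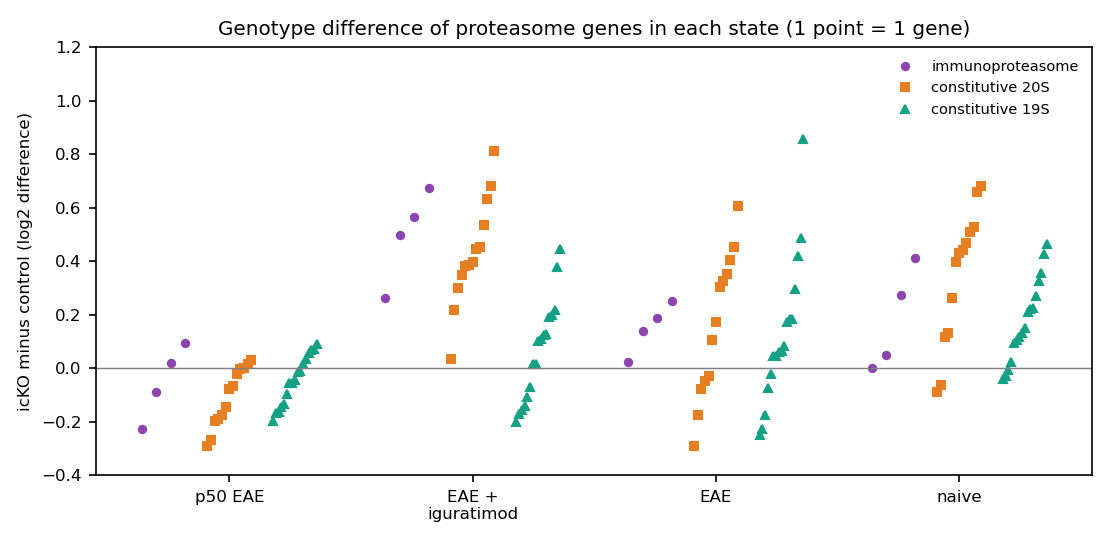
Log2 difference between icKO and control (y axis) in each state (x axis) for the 4 immunoproteasome (circles), 13 constitutive 20S (squares) and 17 constitutive 19S genes (triangles), 1 point per gene. Under iguratimod all circles and squares lie above 0, and at p50 no point lies beyond 0.30 either way.

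The change in EAE was much the same size in both genotypes for the inducible genes, and no difference of changes passed in limma with 1 residual degree of freedom (0 of all genes, 1131 at unadjusted p under 0.05). Psmb8 changed by 1.05 in icKO and 1.22 in control mice, Psmb9 by 0.98 in icKO and 0.84 in control mice, and Psmb10 by 1.05 in icKO and 1.14 in control mice. Their differences of changes were -0.16 ± 0.48, 0.14 ± 0.35 and -0.08 ± 0.47 (SE), so differences of up to about the change itself were not detectable. The neutrophil marker sums of the same arrays, given above, differ between the genotypes, and their part in these changes was not tested. Psmg2, a core chaperone gene, read 9.45 and 10.22 on the icKO and control EAE arrays, against 10.04 and 9.50 on the naive arrays, so its genotypes crossed. Its difference of changes was -1.31 ± 0.34 (SE, limma unadjusted p = 0.0104, adjusted p = 0.634). Psmc1, an ATPase gene, read 9.87 and 10.07 on the icKO and control iguratimod arrays, against 10.80 and 9.94 in EAE. Its difference of changes under iguratimod was -1.06 ± 0.27 (SE, unadjusted p = 0.0188, adjusted p = 0.588), with the icKO EAE array the highest of the 8.

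Over the 8 arrays, the proteasome genes most like the mean of the 4 immunoproteasome genes were Psma5 (Pearson r = 0.96), Psmb1 (0.93), Psmb4 (0.92), Psmc6 (0.92) and Psmg4 (0.91), and the least alike were Psmd6 (0.11) and Psmg2 (0.00). Among 10222 other named protein-coding genes, the closest were Rpl27 (0.995) and Rpsa (0.989), which encode ribosomal proteins, and Cox4i1 (0.991) and Uqcrq (0.991), of the respiratory chain. Nap1l1 (0.988), Bola2 (0.987), Ms4a6c (0.986) and Casp4 (0.986) followed. These coefficients describe 8 arrays that share states and genotypes. In EAE these genes outside the proteasome also differed from naive, by 0.68 (Bola2) to 2.49 (Ms4a6c), with Rpl27 at 2.18 and Rpsa at 1.66. A rise of the size seen in the inducible proteasome genes was thus not particular to them.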

How the data were processed

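Microglial RNA was labelled with a whole-transcript kit and hybridised to Affymetrix arrays, per the labels' protocols. The authors deposited 1 linear intensity per probe set and array; Affymetrix Expression Console is the tool in the submitters' processing notes, and its summarisation and normalization settings are not given in the sources used here. The table held 65956 probe sets, 31258 with 1 gene symbol, 1492 with several and 33206 unnamed here. Probe-set symbols came from the platform annotation, and 1152 were updated through RefSeq (GRCm38.p6). The brightest probe set stood for a gene. Deposited intensities were put on a log2 scale with a pseudocount of 16. A gene was tested if it exceeded the array's 50th percentile, taken over named probe sets, on any array (18234 genes).

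R 4.3.3 with limma 3.58.1 fitted state and genotype (3 residual degrees of freedom, prior degrees of freedom 2.87, adjusted by Benjamini-Hochberg over all tested genes); the script was tested on simulated data. Nothing says whether samples were separate animals or pools. The number of arrays limits precision. With 1 array per group, no difference between 2 arrays has a replicate check. The 3 probe sets annotated to a proteasome gene and another gene were left out of the counts. The proteasome members and all gene lists were chosen with earlier results of these data known. Genes named in full were Psmb8, Psmb9, Psmb10, Psme1, Psme2 and the replaced Psmb5, Psmb6 and Psmb7, every member that passed, the 3 highest and 3 lowest others per contrast with 1 sign in both genotypes (all 4 states for genotype), and Psma8 and Psmb11. Others (among them Psmd4, Psmd6, Psmd8, Psmc6, Psmg2 and Psmc1) were named after their values were seen. Alternatives covered the filter, pseudocount, normalization, probe-set choice, prior, genotype term and left-out arrays. Marker lists also covered B, NK and dendritic cells, oligodendrocytes, astrocytes and neurons, whose sums stayed at or below 1697 intensity units on every array.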

Additional observations from a re-analysis of the deposited data

Results flagged for a closer look

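Psmg2 was the 1 proteasome gene with opposite EAE changes of at least 1.5-fold in the genotypes. It was -0.59 in icKO and 0.72 in control mice, a difference of changes of -1.31 ± 0.34 (SE, limma unadjusted p = 0.0104, adjusted p = 0.634). Each change is 1 array minus 1 array, and the minimum of 1.5-fold was set for this purpose.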

How the results depend on the processing

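The count of 4 genes passing in EAE was 2 with no filter on dim genes, 0 after further quantile normalization, 1 with no genotype term, 3 with a trended and robust prior, 5 at the 70th percentile filter, with arrays centred or with probe sets of several symbols, 0 without the 2 p50 arrays, 2 without the 2 iguratimod arrays, and 0 to 2 when 1 array was left out. It was 0 without either naive, either EAE or either p50 array, and 2 without either iguratimod array; leaving arrays out leaves 2 residual degrees of freedom, and the lone array of a state is assumed to vary like the others. The cause was not tested for the other settings. In EAE, the immunoproteasome minus constitutive mean ranged from 0.47 to 0.64 with 1 array left out; for p50 against naive it ranged from 0.16 to 0.32. For p50 against EAE (main value -0.315) it was -0.303 at the 70th percentile filter, -0.323 with pseudocount 1 and -0.292 with pseudocount 64, and ranged from -0.349 to -0.281 with 1 array left out. Sign turns came only with 1 array left out, and over all arrays left out in turn the differences ranged as follows. Under iguratimod against EAE, Psmc5 ranged from -0.100 (without icKO EAE; -0.053 without the control iguratimod array) to 0.189. Psme1 ranged from -0.336 (without icKO iguratimod) to 0.106 (without control iguratimod). Psmb7 ranged from -0.089 (without icKO iguratimod; -0.029 without icKO EAE) to 0.443. Psmb6 for iguratimod against naive ranged from -0.078 (without icKO iguratimod) to 0.206. For p50 against EAE, Psme4 ranged from -0.072 (without control p50; -0.063 without icKO EAE) to 0.225, and Psmc2 from -0.068 (without icKO EAE; -0.048 without control p50) to 0.131. The other values checked were those of single genes and the numbers of genes at least 1.5-fold different, recounted at 2-fold. Apart from the sign turns, 1149 of these values were the same, 56 weaker and 3 stronger. For single genes, same means that direction and side of the threshold were kept, and weaker or stronger that the threshold was lost or gained. Over all genes, EAE against naive called 617 higher and 71 lower, but 412 and 51 with no filter, 161 and 46 after quantile normalization, 208 and 23 without the p50 arrays and 0 without any naive or EAE array. For p50 against naive (64 higher and 73 lower) the counts were 254 and 112 at the 70th percentile filter, 282 and 105 with arrays centred, 222 and 111 with no genotype term, 140 and 79 without the iguratimod arrays, and 214 and 232 with probe sets of several symbols. With those probe sets p50 against EAE called 355 higher and 537 lower, against 199 and 295 in the reported fit. No paired analysis was possible because each group has 1 array and the labels share no replicate numbers; state differences compare arrays within a genotype through the genotype term.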
